A study of Mus musculus with 10 samples.

Results

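The receptors for the colony-stimulating factors and the ligands of the CSF1 receptor were compared between microglia sorted from mouse brain and bulk brain tissue. The set held 7 genes (Csf1r, its ligand genes Csf1 and Il34, and the receptor chain genes Csf2ra, Csf2rb, Csf2rb2 and Csf3r), chosen by gene symbol from the 56748 genes of the count table. Each symbol named 1 row, and all 7 genes passed the filter on low counts. Microglia were 5 samples of 400000 CD11b-positive cells each, sorted from the brains of young male C57BL/6 mice and sequenced as poly-A selected RNA. Bulk brain was 5 samples of hemi brains of young male C57BL/6 mice, with no cell type isolated. The labels name no transgene and no treatment in either group, and they leave unsaid if each sample was a separate animal. The p-values set the difference between the groups against the variation among samples within a group, and that variation may be technical.

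CSF1R is a receptor tyrosine kinase on which microglia and other macrophages depend for survival and proliferation, and blocking it depletes microglia from the brain. It binds CSF1, a cytokine of macrophage lineages, and IL-34, a cytokine with little sequence likeness to CSF1 that neurons produce in the brain. The receptor of CSF2 (GM-CSF) joins a specific alpha chain, encoded by Csf2ra, to the common beta chain encoded by Csf2rb, which also serves IL-3 and IL-5, and mice carry an additional IL-3-specific beta chain, Csf2rb2. CSF3R, the receptor of CSF3 (G-CSF), is best known from neutrophils.

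Libraries held 25087489 to 28514509 counts in microglia and 25845049 to 34709215 in bulk brain. The summed level of 10 homeostatic microglia genes, P2ry12, Tmem119 and Itgam (which encodes CD11b) among them, was 23794 to 25407 CPM in microglia, against 187 to 215 CPM in bulk brain, where CPM are counts per 1000000, scaled by library total and composition. Bulk brain replicates 1 and 2 stood apart from replicates 3 to 5, with chi-squares of 106 to 278 per degree of freedom between the sets, 46.6 between replicates 1 and 2, and 5.45 to 7.76 among replicates 3 to 5. Values against replicates 3 to 5 alone are given where they bear on a result. In tissue, fewer cells of a type and less RNA per cell cannot be told apart. Microglia were isolated and sorted and bulk brain was not, so effects of that handling on a gene cannot be told apart from those of cell type.

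All 7 genes differed between the groups. Csf1r, Csf1, Csf2ra, Csf2rb, Csf2rb2 and Csf3r were higher in microglia and Il34 was lower, and in none of the 7 did the CPM ranges of the groups overlap (edgeR quasi-likelihood test, adjusted p from 2.8e-12 to 1.2e-06). This count stands against a high background, since 81.0% of the 18969 genes tested passed the threshold of 0.05. In microglia, 37.2% of all tested genes were called higher and 43.9% lower, and 74.7% had ranges that did not overlap. What set the genes apart from each other was size. The log2 difference was between 6.82 and 7.69 for Csf1r, Csf2rb, Csf2rb2 and Csf3r, 3.10 for Csf2ra, 1.37 for Csf1 and -7.34 for Il34, around a median of 6.82, where the median of all genes tested was -0.14.

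**Figure D1:**
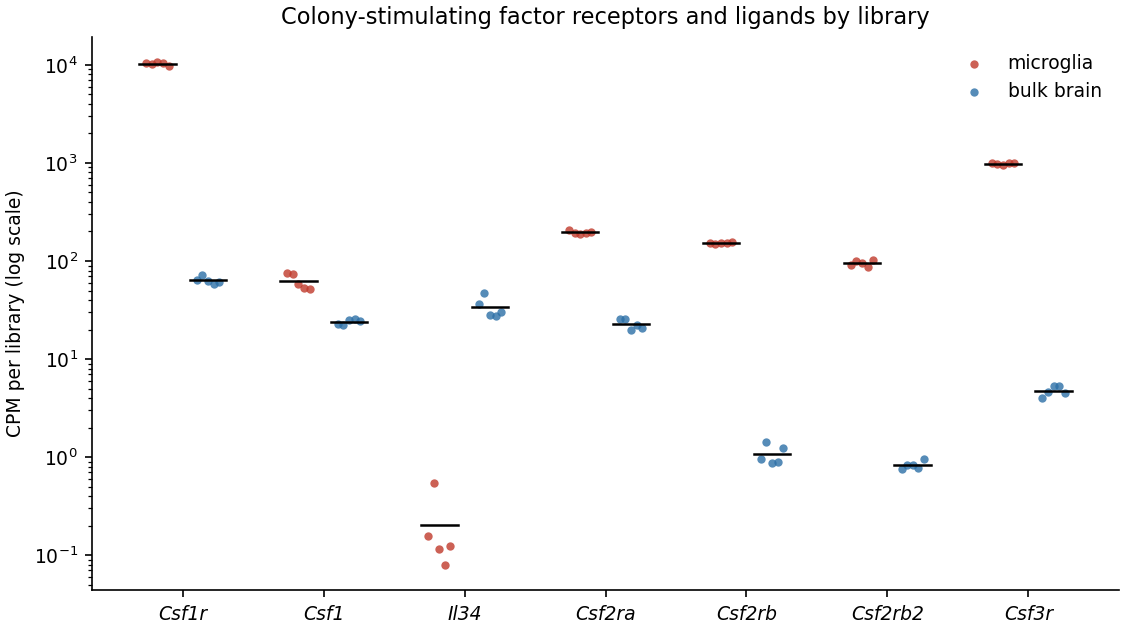
CPM of each gene (log scale) in the 5 microglia libraries and the 5 bulk brain libraries, with 1 point per library and a bar at the mean of the group. Of the 7 genes, 6 sit higher in microglia, from Csf1 (means 62.1 and 24.0 CPM) to Csf3r (985 and 4.78 CPM), and Il34 sits lower (0.204 and 34.0 CPM), with microglia replicate 2 above the other microglia libraries.

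Csf1r was the most abundant protein-coding transcript of the sorted cells by CPM. It stood at 10500.0, 10167, 10715, 10345 and 9752 CPM in microglia replicates 1 to 5, against 63.7, 72.0, 61.9, 58.4 and 60.9 CPM in bulk brain replicates 1 to 5. The microglia libraries lay close together, and bulk brain replicate 2 was the highest of its group. The gene (ENSMUSG00000024621, chromosome 18, 61233670 to 61265221, plus strand, GRCm39) took 0.965% ± 0.037 of all counts in microglia, against 0.00675% ± 0.00058 in bulk brain (SD, n = 5 each). Its log2 difference was 7.34 ± 0.12 (SE, edgeR adjusted p = 2.8e-12), or 162-fold on the means. Per kilobase of gene length it ranked 8 of 21970 protein-coding genes in microglia and 4276 in bulk brain. Hmgxb3, on the opposite strand, overlaps Csf1r and averaged 46.1 CPM in microglia, against 34.3 CPM in bulk brain, and without a stated strand setting reads from the overlap cannot be told apart.

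Genes with the pattern most like that of Csf1r over the 10 libraries were Adgre1, Cx3cr1 and Pld4. Likeness was the root mean square difference of centred log2 CPM over the 10 libraries among 15028 other protein-coding genes, and it was 0.098, 0.10 and 0.12 for these genes. Adgre1, which encodes the macrophage surface protein F4/80, averaged 609 ± 21.9 CPM in microglia, against 3.79 ± 0.12 CPM in bulk brain (SD, n = 5 each). Cx3cr1, the fractalkine receptor gene, averaged 5707 ± 121 CPM in microglia, against 35.3 ± 4.06 CPM in bulk brain. Pld4, a gene of the phospholipase D family, averaged 911 ± 23.4 CPM in microglia, against 5.89 ± 1.04 CPM in bulk brain.

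The ligand genes Csf1 and Il34 moved in opposite directions. Csf1 (ENSMUSG00000014599, chromosome 3, 107648364 to 107667785, minus strand) stood at 75.3, 73.0, 58.2, 52.5 and 51.5 CPM in microglia replicates 1 to 5, against 22.6, 22.2, 25.2, 25.8 and 24.4 CPM in bulk brain replicates 1 to 5. Every microglia library lay above every bulk brain library, and microglia replicates 1 and 2 were the highest. The log2 difference was 1.37 ± 0.13 (SE, edgeR adjusted p = 1.2e-06), a 2.58-fold difference of the means, and 1.15 against bulk brain replicates 3 to 5 alone. In the same microglia replicates 1 and 2 the summed level of 6 endothelial markers was also highest, at 43.6 and 37.6 CPM, against 23.0 to 24.2 CPM in replicates 3 to 5. Flt1 (20.1 and 14.7 CPM against 7.12 to 11.2 CPM), Cldn5 and Slco1c1 were each higher in replicates 1 and 2. Tek, Emcn and Ly6c1 did not follow that order, and Tek was highest in replicates 2 and 5. The 6 endothelial markers were at 9.73% to 17.4% of their bulk brain level in microglia, and Csf1 was at 258%. The JAK-STAT inhibitor gene Socs3 was also highest in microglia replicates 1 and 2, at 352 and 350 CPM against 271 to 287 CPM. Socs1 was too (7.75 and 8.84 CPM against 3.93 to 6.29 CPM), while Socs2 and Cish did not follow that order. The part of endothelial RNA in the spread of Csf1 was not tested, nor was any link to these inhibitor genes. The genes most like Csf1 in pattern were Suclg2, Tatdn2 and Eri1, with a root mean square difference of 0.13 to 0.14.

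Il34 was nearly absent from the sorted cells. The gene (ENSMUSG00000031750, chromosome 8, 111468461 to 111532556, minus strand) had 4, 14, 3, 2 and 3 counts in microglia replicates 1 to 5, against 1322, 1653, 778, 928 and 1103 counts in bulk brain replicates 1 to 5. In CPM this was 0.159, 0.543, 0.116, 0.0796 and 0.125 in microglia and 36.2, 47.7, 28.3, 27.6 and 30.4 in bulk brain. Microglia replicate 2 held more than the other microglia libraries together, and bulk brain replicates 1 and 2 were above replicates 3 to 5. The log2 difference was -7.34 ± 0.40 (SE, edgeR adjusted p = 7.9e-09), a bulk brain mean 166-fold above that of microglia. Without microglia replicate 2 it was -8.09 ± 0.30 (edgeR adjusted p = 2.3e-09), and against bulk brain replicates 3 to 5 alone it was -7.25.

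Il34 in microglia stood at 0.601% of its bulk brain level. Markers of other brain cells stood at 0.0394% to 0.397% for 7 neuron markers (median 0.0848%), 0.227% to 2.21% for 6 astrocyte markers (median 0.414%) and 0.316% to 11.8% for 6 oligodendrocyte markers (median 0.990%). Microglia replicate 2, which held the most Il34, also held the highest marker sums, at 33.7 CPM for astrocyte, 182 CPM for oligodendrocyte and 6.24 CPM for neuron markers. The other microglia libraries held 5.93 to 19.2, 88.5 to 155 and 4.36 to 5.50 CPM of these sums. Not every marker was highest in replicate 2. Syt1 (1.16 CPM against 0.154 to 0.358 CPM), Snap25, Gad1 and Stmn2 were. Rbfox3 was lowest there (0.388 CPM against 0.501 to 1.79 CPM), and Slc17a7 and Gad2 were highest in other libraries. The same held for Aldh1l1 of the astrocyte markers and for Mog, Mag and Cldn11 of the oligodendrocyte markers. Without replicate 2, Il34 averaged 0.120 CPM in microglia, 0.352% of its bulk brain level, and the markers stood at 0.0223% to 0.450% for neurons, 0.190% to 2.002% for astrocytes and 0.328% to 11.8% for oligodendrocytes. None of these 19 markers was at 0 over the microglia libraries, and the part of RNA from other cells in the Il34 counts was not tested. In bulk brain, the replicates with more Il34 (1 and 2) held lower neuron marker sums, 4628 and 4354 CPM against 4920 to 5197 CPM in replicates 3 to 5, lower astrocyte marker sums, 3173 and 3095 CPM against 3868 to 3938 CPM, and higher oligodendrocyte marker sums, 6729 and 7189 CPM against 5341 to 5430 CPM. The astrocyte markers moved in different directions in these replicates. Slc1a2 (1355 and 1196 CPM against 2377 to 2443 CPM), Aqp4 and Gja1 were lower. Gfap (286 and 319.8 CPM against 207 to 215 CPM), Aldoc and Aldh1l1 were higher. The neuron markers also moved in different directions. Syt1 (813 and 666 CPM against 1260.0 to 1339 CPM) and Gad2 (213 and 161 CPM against 332 to 339 CPM) were lower. Gad1 (517 and 451 CPM against 523 to 538 CPM) and Rbfox3 (204.3 and 203.9 CPM against 204.4 to 227.7 CPM) were lower too. Stmn2 was higher (417 and 464 CPM against 301 to 307 CPM). The ranges of Snap25 and Slc17a7 overlapped those of replicates 3 to 5.

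**Figure D2:**
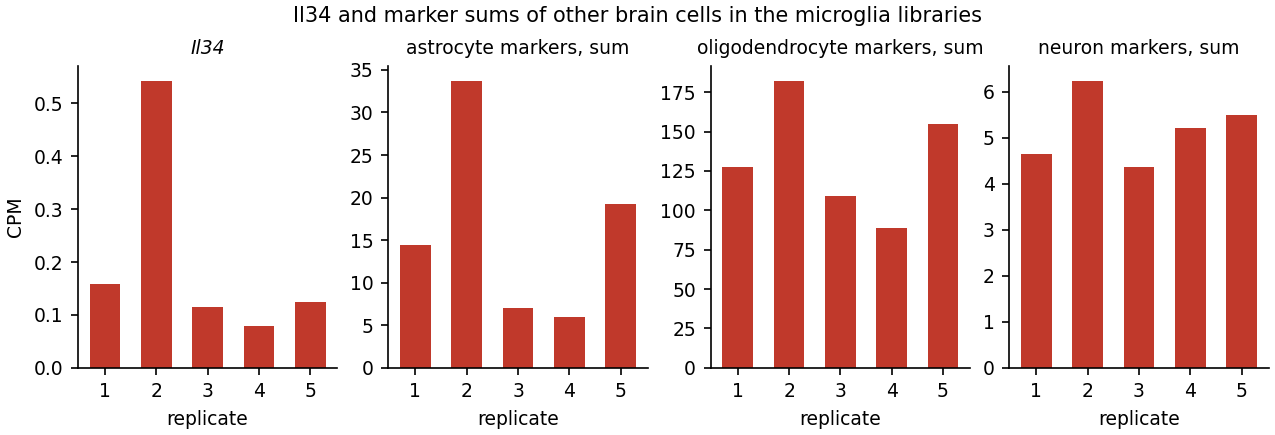
CPM of Il34 and summed CPM of 6 astrocyte, 6 oligodendrocyte and 7 neuron markers in the 5 microglia libraries, with 1 bar per library and separate vertical scales from 0. Replicate 2 is the highest library in all panels, at 0.543, 33.7, 182 and 6.24 CPM.

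Genes most like Il34 in pattern were Scrg1, Il17d and Nol3, with a root mean square difference of 0.17 to 0.20 over the 10 libraries. Their microglia counts, 6 of Scrg1, 4 of Il17d and 5 of Nol3, all lay in replicate 2, the library with the most Il34, and the other 4 microglia libraries were at 0. The genes were chosen for likeness over these same libraries, replicate 2 included, so this adds no support to the Il34 value of that library. Bulk brain averaged 13.7 ± 3.17 CPM of Scrg1, 15.2 ± 5.59 CPM of Il17d and 13.9 ± 5.26 CPM of Nol3 (SD, n = 5).

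Levels of different genes were compared per kilobase of gene length. On that scale Csf1 was the ligand transcript of microglia, and Il34 made up 0.407% to 1.97% of the sum of Csf1 and Il34 there (median 0.566%), against 74.2% to 85.3% in bulk brain (median 77.0%). Csf1 averaged 11.8 ± 2.15 CPM per kb in microglia, against 4.55 ± 0.30 in bulk brain, and Il34 averaged 0.104 ± 0.098 CPM per kb in microglia, against 17.4 ± 4.27 in bulk brain (SD, n = 5 each). Csf1r stood above both ligand genes in the sorted cells, and between Il34 and Csf1 in tissue. The ratio of Csf1r to the sum of Csf1 and Il34, per kb, was 125 to 180 in microglia (median 168) and 0.437 to 0.558 in bulk brain (median 0.525). These ratios are descriptions and were given no test.

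**Figure D3:**
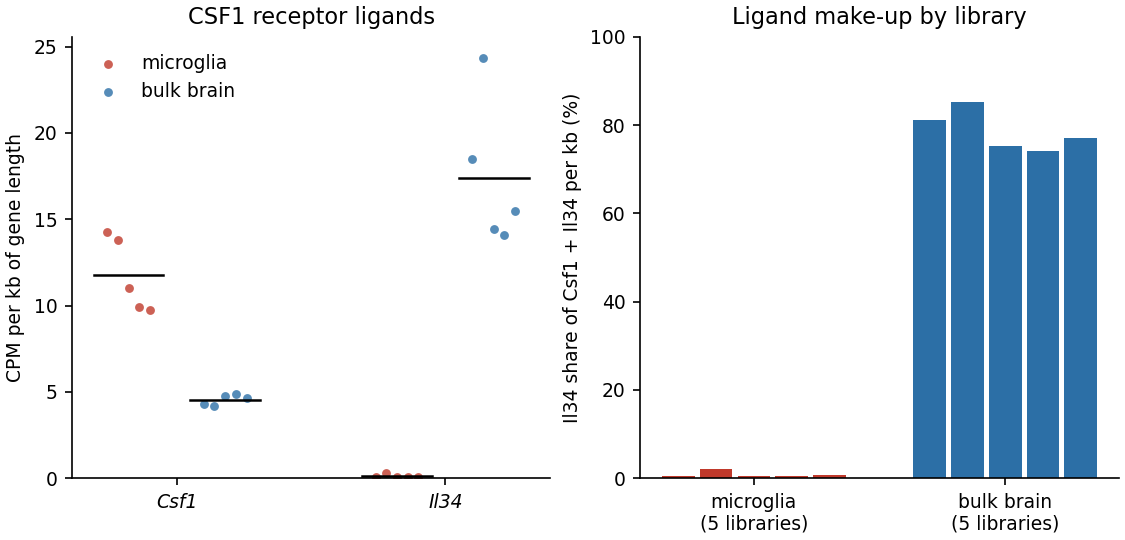
The left panel shows CPM per kb of gene length of Csf1 and Il34 in each library, with a bar at the mean of the group, and the right panel shows Il34 as a percentage of the sum of Csf1 and Il34 per kb, with 1 bar per library. Il34 makes up at most 1.97% in microglia and at least 74.2% in bulk brain.

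Csf3r, the G-CSF receptor gene, had the highest log2 difference of the 6 genes that were higher in microglia. It stood at 998, 978, 956, 997 and 996 CPM in microglia replicates 1 to 5, against 4.02, 4.65, 5.35, 5.32 and 4.54 CPM in bulk brain replicates 1 to 5. The microglia libraries were within a narrow range. The gene (ENSMUSG00000028859, chromosome 4, 125918343 to 125938233, plus strand) differed by 7.69 ± 0.12 on the log2 scale (SE, edgeR adjusted p = 2.8e-12), or 206-fold on the means. Per kb it ranked 97 of 21970 protein-coding genes in microglia and 11577 in bulk brain. Csf1r exceeded Csf3r per kb by 6.12 to 7.004 times in microglia and by 6.86 to 9.89 times in bulk brain.

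Neutrophils also carry CD11b and express Csf3r, and their marker sum was higher in microglia than in bulk brain. The summed level of 12 neutrophil markers was 8.42 to 19.6 CPM in microglia, against 2.12 to 3.64 CPM in bulk brain. Most of the bulk brain sum was Mmp9, at 1.48 to 2.25 CPM, against 1.28 to 4.74 CPM in microglia. Of the 12 markers, 6 passed the filter on low counts. Among these, 5 were higher in microglia, beside 37.2% of all genes tested, and Mmp9 did not pass the threshold. The 5 were the calprotectin genes S100a8 and S100a9, the granule protein genes Camp and Ltf, and Ngp, with mean levels in microglia from 0.576 CPM (Camp) to 4.73 CPM (S100a9). In bulk brain they were at 0 to 0.404 CPM per library. They passed the filter mainly through the microglia libraries, so their calls as higher were nearly fixed in advance and the count is a description only. The 6 below the filter had, over 5 libraries each, 12 counts in microglia and 6 in bulk brain (Ly6g), 2 and 12 (Mpo), 2 and 2 (Elane), 42 and 0 (Cxcr2), 96 and 4 (Retnlg) and 65 and 6 (Mmp8). Microglia replicate 2 held the lowest neutrophil sum, 8.42 CPM against 16.7 to 19.6 CPM in the others, and its Csf3r level of 978 CPM lay within the range of the other 4. The part of neutrophil RNA in the Csf3r level was not tested.

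Csf2ra, the alpha chain gene of the GM-CSF receptor, was higher in microglia by a smaller factor than the beta chain genes. It stood at 209, 194, 186, 193 and 197 CPM in microglia replicates 1 to 5, against 25.4, 25.4, 19.8, 22.3 and 21.0 CPM in bulk brain replicates 1 to 5. Bulk brain replicates 1 and 2 were the highest of their group, and no bulk brain library came near the microglia range. The gene (ENSMUSG00000059326, chromosome 19, 61212395 to 61216867, minus strand) differed by 3.10 ± 0.10 on the log2 scale (SE, edgeR adjusted p = 1.2e-10), or 8.59-fold on the means.

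Csf2rb, the common beta chain gene, stood at 154, 150.1, 152, 154 and 156 CPM in microglia replicates 1 to 5, against 0.958, 1.41, 0.873, 0.891 and 1.24 CPM in bulk brain replicates 1 to 5. Bulk brain replicates 2 and 5 were the higher libraries of a group that rests on 24 to 49 counts each. The gene (ENSMUSG00000071713, chromosome 15, 78209952 to 78238047, plus strand) differed by 7.14 ± 0.16 on the log2 scale (SE, edgeR adjusted p = 8.5e-12). Its neighbour Csf2rb2, the IL-3-specific beta chain gene, stood at 91.2, 99.3, 95.1, 86.9 and 102 CPM in microglia, against 0.767, 0.837, 0.837, 0.772 and 0.963 CPM in bulk brain. Bulk brain replicate 5 was the highest of its group, with 35 counts. Csf2rb2 (ENSMUSG00000071714, chromosome 15, 78166707 to 78189921, minus strand) differed by 6.82 ± 0.12 (SE, edgeR adjusted p = 2.8e-12).

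The beta chain genes are near-identical in part, so that their separate counts are uncertain. Of the 50-base windows in annotated transcripts, 12.3% of those of Csf2rb and 18.9% of those of Csf2rb2 occurred in a transcript of another gene, and for 100-base windows the shares were 4.63% and 6.82%, all of them shared between these 2 genes. With the counts of both summed as 1 gene, the log2 difference was 7.02 ± 0.13 (SE, edgeR adjusted p = 3.9e-12). For Csf3r the share was 10.5% of 50-base windows and 0.376% of 100-base windows, and for Csf1r, Csf1, Il34 and Csf2ra it was 0% at both lengths.

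Per kb, the alpha and beta chains were in different proportion in the groups. The ratio of Csf2ra to Csf2rb was 3.11 to 3.44 in microglia (median 3.20) and 42.9 to 67.3 in bulk brain (median 57.6). Csf2rb stood at 0.985 to 1.15 times Csf2rb2 in microglia (median 1.04) and at 0.680 to 1.101 times in bulk brain (median 0.814), ranges that overlapped. In order of level per kb, microglia held Csf1r (1783 ± 63.2), Csf3r (273 ± 5.03), Csf2ra (68.1 ± 2.88), Csf2rb (21.0 ± 0.30), Csf2rb2 (20.04 ± 1.31), Csf1 and Il34, with the beta chain genes within their spread of each other. Bulk brain held Il34, Csf1r (11.0 ± 0.90), Csf2ra (7.94 ± 0.89), Csf1, Csf3r (1.32 ± 0.16), Csf2rb2 (0.176 ± 0.017) and Csf2rb (0.148 ± 0.033), where the beta chain genes again lay within their spread (CPM per kb, mean ± SD, n = 5).

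Seen from tissue, the bulk brain level of 4 receptor genes was a small fraction of the microglia level. It was 0.485% for Csf3r, 0.616% for Csf1r, 0.702% for Csf2rb and 0.879% for Csf2rb2, beside 0.533% to 2.26% for the 10 homeostatic microglia genes (median 0.782%). Csf2ra at 11.6% and Csf1 at 38.7% lay above that range. The difference of these percentages between genes was not tested.

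**Figure D4:**
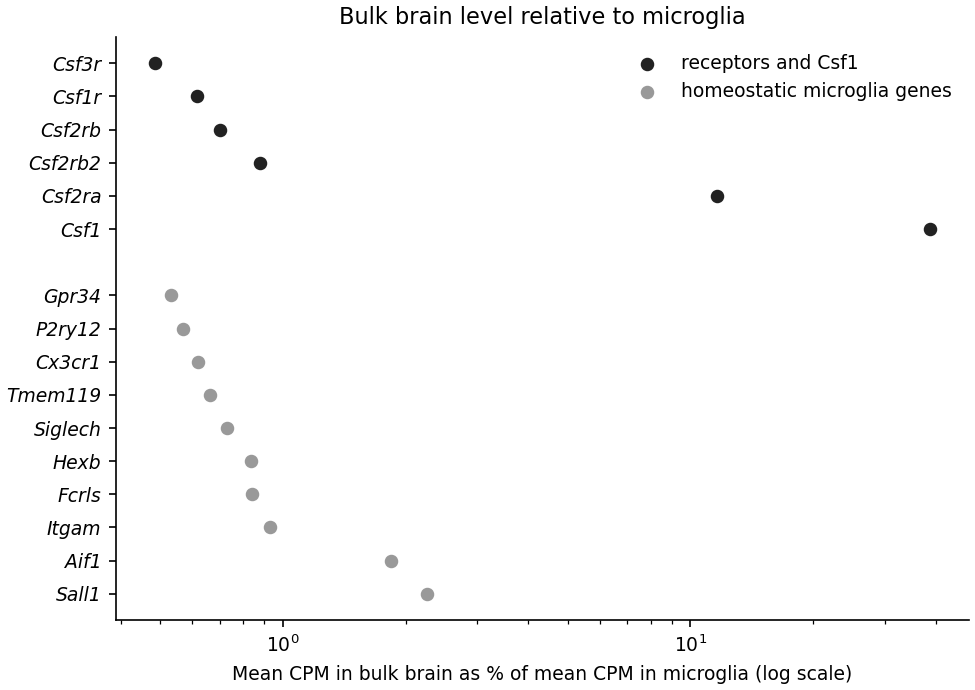
Mean CPM in bulk brain as a percentage of mean CPM in microglia (log scale) for 5 receptor genes and Csf1 (black) and for 10 homeostatic microglia genes (grey), with 1 point per gene. Csf3r, Csf1r, Csf2rb and Csf2rb2 lie between 0.485% and 0.879%, and Csf2ra (11.6%) and Csf1 (38.7%) lie above all homeostatic genes.

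Promoters are shown for the genes of the set that were higher in microglia and had an entry, with matches to GAGGAA in capitals. GAGGAA, or TTCCTC on the other strand, is a purine-rich core bound by PU.1, the macrophage transcription factor encoded by Spi1. The sequences run from 250 bases before to 50 bases after the RefSeq gene start (GRCm38.p6, not the build of the counts), and the RefSeq table used here matched 4 of the 7 genes. They lie at chr19:61228369-61228668 (minus strand, Csf2ra), chr15:78305672-78305971 (minus strand, Csf2rb2), chr4:126024409-126024708 (plus strand, Csf3r) and chr3:107760420-107760719 (minus strand, Csf1).
Csf2ra: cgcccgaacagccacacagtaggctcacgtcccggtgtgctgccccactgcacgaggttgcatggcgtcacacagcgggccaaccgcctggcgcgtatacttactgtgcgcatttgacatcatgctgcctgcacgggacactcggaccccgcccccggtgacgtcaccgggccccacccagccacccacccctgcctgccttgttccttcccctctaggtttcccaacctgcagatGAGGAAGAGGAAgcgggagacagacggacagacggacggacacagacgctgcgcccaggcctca
Csf2rb2: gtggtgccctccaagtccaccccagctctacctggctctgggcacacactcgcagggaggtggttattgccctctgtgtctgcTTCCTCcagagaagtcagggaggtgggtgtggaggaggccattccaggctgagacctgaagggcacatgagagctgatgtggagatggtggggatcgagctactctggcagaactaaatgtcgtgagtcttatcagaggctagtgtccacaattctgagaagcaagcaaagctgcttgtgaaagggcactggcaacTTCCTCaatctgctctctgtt
Csf3r: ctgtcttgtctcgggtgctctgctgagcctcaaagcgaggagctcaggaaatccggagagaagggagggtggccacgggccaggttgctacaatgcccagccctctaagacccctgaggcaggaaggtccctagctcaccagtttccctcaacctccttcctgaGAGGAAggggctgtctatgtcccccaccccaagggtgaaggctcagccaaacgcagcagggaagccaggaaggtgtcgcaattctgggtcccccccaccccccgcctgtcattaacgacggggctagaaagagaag
Csf1: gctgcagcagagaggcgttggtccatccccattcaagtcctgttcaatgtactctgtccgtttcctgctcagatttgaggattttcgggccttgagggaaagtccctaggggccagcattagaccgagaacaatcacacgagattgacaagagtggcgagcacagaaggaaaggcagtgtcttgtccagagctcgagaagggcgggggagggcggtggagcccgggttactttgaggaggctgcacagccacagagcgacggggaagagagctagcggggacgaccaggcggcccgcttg
Csf2ra held the motif in tandem, beginning 14 and 8 bases before the start, and Csf3r held 1 match beginning 86 bases before it. Csf2rb2 held 2 on the other strand, beginning 167 bases before the start and at base 30 after it, and Csf1 held 0 in this window. Of all 32851 promoters of that length in the table, 28.3% held the motif, so that its presence in 3 of 4 is a description only.

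The genes around these receptors were described from 9 lists of 55 genes. Of 50 that passed the filter, 31 were higher in microglia, 16 lower and 3 not past the threshold, with a median log2 difference of 1.28 beside -0.14 for all genes tested (edgeR quasi-likelihood test). Those calls stand beside 37.2% higher, 43.9% lower and 81.0% called in all over the genes tested, shares that apply to each list below. Kit, Pdgfra and Sdc1 were near the floor in microglia and passed the filter through bulk brain, so their direction was nearly fixed in advance. With bulk brain limited to replicates 3 to 5, 32 were higher and 17 lower.

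Ligands of the CSF2, CSF3 and IL-3 receptors were close to undetected in both groups. Csf2, Csf3, Il3 and Il5 had 0 counts in all microglia libraries, and bulk brain held 0, 3, 1 and 6 counts of them over its 5 libraries. A count of 0 allows up to 3 counts, or 0.116 to 0.125 CPM in a single microglia library. Il3ra, the IL-3 alpha chain gene, averaged 3.997 ± 1.48 CPM in microglia, against 1.85 ± 0.95 CPM in bulk brain (SD, n = 5 each), with ranges that overlapped. Its log2 difference of 1.11 ± 0.39 passed narrowly (SE, edgeR adjusted p = 0.022). That call was lost without microglia replicate 3 (adjusted p = 0.056) and without bulk brain replicate 3, 4 or 5 (edgeR adjusted p = 0.065, 0.066 and 0.055). Il5ra, the IL-5 alpha chain gene, had 2 counts over microglia and 4 over bulk brain.

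Other proteins that bind IL-34 had transcripts lower in microglia, at 2 of 2. Ptprz1, a receptor phosphatase gene, averaged 1.04 ± 0.91 CPM in microglia, against 268 ± 92.1 CPM in bulk brain (-8.01 ± 0.59 SE on the log2 scale, edgeR adjusted p = 1.2e-07). Sdc1, which encodes the proteoglycan syndecan-1, averaged 0.232 ± 0.208 CPM in microglia, against 3.27 ± 0.80 CPM in bulk brain (-3.80 ± 0.56, edgeR adjusted p = 5.7e-05).

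The other class III receptor tyrosine kinases, the structural relatives of CSF1R, were lower in microglia at 4 of 4 (median log2 difference -5.36), where 43.9% of all genes tested were lower. Kit, the stem cell factor receptor gene, averaged 0.244 ± 0.172 CPM in microglia, against 76.3 ± 14.9 CPM in bulk brain, a log2 difference of -8.25. The platelet-derived growth factor receptor genes stood at -6.91 (Pdgfra) and -3.81 (Pdgfrb). Flt3, a receptor gene of early blood and dendritic cells, averaged 3.43 ± 0.93 CPM in microglia, against 17.1 ± 2.30 CPM in bulk brain (-2.31). Of their 6 ligand genes, Pdgfb (339 ± 12.7 CPM in microglia, against 22.0 ± 2.62 CPM in bulk brain, log2 difference 3.95) and Flt3l (1.11) were higher, and Kitl (-0.67, with ranges that overlapped), Pdgfa (-0.91), Pdgfc (-1.62) and Pdgfd (-4.56) were lower.

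Genes of enzymes that process CSF1 and its receptor were higher at 2 of 2. Adam17, whose protease sheds both CSF1R and membrane-bound CSF1, averaged 430.3 ± 16.8 CPM in microglia, against 22.2 ± 2.49 CPM in bulk brain (4.28 ± 0.11 SE on the log2 scale, edgeR adjusted p = 1.9e-11). Furin, a proprotein convertase gene, averaged 108 ± 5.63 CPM in microglia, against 33.6 ± 3.49 CPM in bulk brain (1.68).

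Of 19 signalling genes below CSF1R, 14 rose, 3 fell and 2 did not pass (median log2 difference 2.79), beside 37.2% higher and 43.9% lower over all genes tested. Inpp5d, Ptpn6, Plcg2, Lyn and Tyrobp were among the genes with the largest differences. Inpp5d, which encodes the lipid phosphatase SHIP1, averaged 1335 ± 22.6 CPM in microglia, against 9.54 ± 1.12 CPM in bulk brain (7.13 ± 0.12 SE, edgeR adjusted p = 2.8e-12). The SRC-family kinase gene Lyn stood at 6.05, the phosphatase gene Ptpn6 at 6.62, the phospholipase gene Plcg2 at 6.24 and the adaptor gene Tyrobp at 5.88. The kinase gene Fyn (-2.48) was lower. Src was lower by a small amount, 75.4 ± 8.44 CPM in microglia, against 91.7 ± 6.99 CPM in bulk brain (-0.28 ± 0.10 SE, edgeR adjusted p = 0.022), with ranges that overlapped. Its call was lost without microglia replicate 2 or 5 (edgeR adjusted p = 0.075 and 0.077) and with upper-quartile scaling (0.086). Sos1 (-0.29) and Mapk3 (0.11) did not pass, and both were called in either direction depending on the bulk brain libraries. Against replicates 1 and 2 alone, Sos1 passed as higher (0.39, edgeR adjusted p = 0.025) and Mapk3 as lower (-0.37, edgeR adjusted p = 0.0063). Against replicates 3 to 5 alone, Sos1 passed as lower (-0.80, edgeR adjusted p = 1.5e-08) and Mapk3 as higher (0.32, edgeR adjusted p = 0.00027). Sos1 also passed as lower without bulk brain replicate 2 (-0.61, edgeR adjusted p = 0.0057).

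JAK-STAT genes used by the CSF2 and CSF3 receptors were higher at 7 of 10 and lower at 3 (median log2 difference 1.28), again beside 37.2% and 43.9%. Socs3, which encodes a feedback inhibitor of the G-CSF receptor, had the largest difference, 308 ± 40.0 CPM in microglia, against 2.28 ± 0.24 CPM in bulk brain (7.07 ± 0.15 SE, edgeR adjusted p = 6.5e-12). Stat5a (3.30), Socs1 (2.76), Stat3 (1.88), Stat5b (1.39), Jak1 (1.17) and Jak2 (0.99) were higher too. Cish, an inhibitor gene induced by STAT5, averaged 0.895 ± 0.372 CPM in microglia, against 3.78 ± 1.04 CPM in bulk brain (-2.07), and Socs2 (-3.86) and the phosphatase gene Ptpn11 (-1.27) were also lower.

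Transcription factor genes known to act at the Csf1r gene were higher at 5 of 6 (median log2 difference 6.37), beside 37.2% of all genes tested. Spi1 averaged 243 ± 9.72 CPM in microglia, against 2.40 ± 1.07 CPM in bulk brain (6.66 ± 0.27 SE, edgeR adjusted p = 7.4e-10). Runx1 (7.54), Irf8 (7.08), Cebpa (6.08) and Cebpb (4.16) were higher as well. Ets2 averaged 77.3 ± 6.40 CPM in microglia, against 68.0 ± 3.93 CPM in bulk brain (0.19, edgeR adjusted p = 0.072). It passed the threshold without microglia replicate 5 (0.25, edgeR adjusted p = 0.024) and stood at -0.01 against bulk brain replicates 3 to 5 alone.

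**Figure D5:**
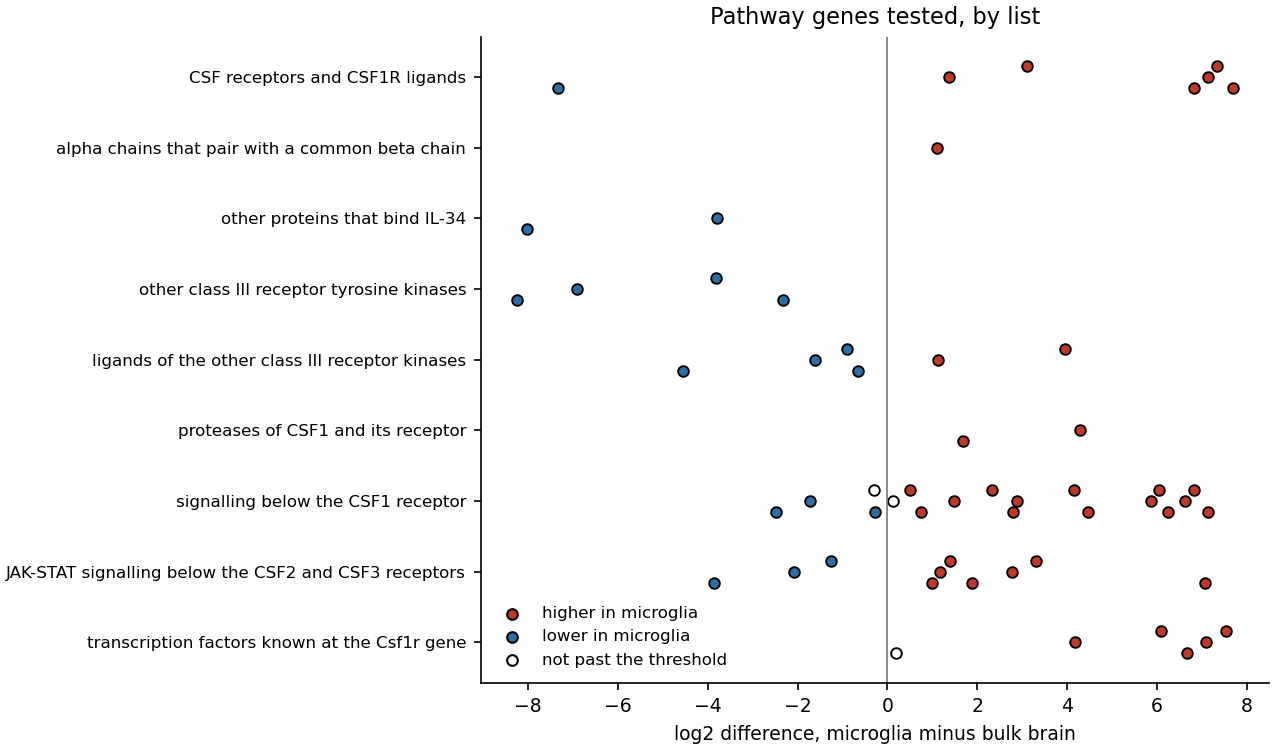
Log2 difference, microglia minus bulk brain, of the 7 colony-stimulating factor receptor and CSF1 receptor ligand genes (top row) and of the 50 pathway genes tested, with 1 point per gene, red where higher in microglia, blue where lower and white where the threshold was not passed. All 4 other class III receptor kinases lie left of 0, and 14 of 19 signalling genes below CSF1R are red.

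Markers of other immune cells were measured because a CD11b sort can hold some of these cells. The summed level of 10 border-associated macrophage markers, whose cells also express Csf1r, was 517 to 671 CPM in microglia, against 11.6 to 14.0 CPM in bulk brain. All 10 genes were called higher, beside 37.2% of all genes tested. Siglec1 and Folr2, at 0 to 0.505 CPM in bulk brain, passed the filter mainly through the microglia libraries, so their calls were nearly fixed in advance. Microglia replicate 4 held the highest such sum, and its Csf1r level of 10345 CPM lay within the range of the other 4. The summed level of 8 monocyte and dendritic cell markers was 49.3 to 70.0 CPM in microglia, against 16.7 to 27.3 CPM in bulk brain. In microglia the sum was led by Ccr2 (25.6 ± 4.56 CPM), followed by Cd209a (14.6 to 24.4 CPM), with 42 counts of Ly6c2 over the 5 microglia libraries. Of the 8 markers, 5 passed the filter, with 4 higher and Zbtb46 lower, beside 37.2% higher and 43.9% lower over all genes tested. Ccr2, Cd209a and Chil3 were at 0 to 0.664 CPM in bulk brain and passed the filter mainly through the microglia libraries. Their calls as higher were thus nearly fixed in advance. Most of the bulk brain sum was Zbtb46, at 15.8 to 25.8 CPM, against 9.05 to 11.4 CPM in microglia. Ccr2 was at 0.173 to 0.546 CPM in bulk brain. The 6 lymphocyte and natural killer cell markers summed to 0.250 to 1.75 CPM in microglia, against 0.356 to 0.633 CPM in bulk brain. The part of these cells in the receptor levels was not tested.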

How the data were processed

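Poly-A selected RNA was sequenced from 5 microglia and 5 bulk brain samples, per the labels' protocols. Raw counts, not normalized, were deposited by the authors in 1 table with symbols, GRCm39 coordinates and gene lengths. HISAT2 2.2.1 and featureCounts 2.0 are named in the submitters' processing notes, whose settings, strand included, the sources used here do not give. All 10 count columns matched a sample.

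Genes were kept by edgeR's filterByExpr (18969 genes). TMM scaling preceded the test, run in edgeR 4.0.16 (quasi-likelihood, R 4.3.3, limma 3.58.1) on all 10 libraries, with no term besides group, and Benjamini-Hochberg adjustment over all genes at 0.05. An SE was taken as the absolute log2 difference over the root of F. CPM use TMM-scaled library totals, and CPM per kb divide them by gene length. Intervals and floors for 0 counts (3 counts) cover counting error only. The smallest chi-square per degree of freedom between replicates was 5.45, above sampling noise. Each library was counted once, though this value cannot show that the samples were separate animals.

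The genes and lists were chosen with earlier results of these data known. Named genes were the 7 members, the pathway lists, the markers that bear on them, and the 3 coding genes most like Csf1r, Csf1 and Il34, with a pseudocount of 0.1 CPM. Shared windows came from GENCODE vM21 transcripts, and promoters from RefSeq (GRCm38.p6). No coordinates were converted. The values of 2 genes of the CSF1R signalling list are not reported here. Alternatives were other scalings, filters, DESeq2 1.42.0, limma-voom, a replicate block, parts of bulk brain, leaving out each library and summing the paralogs.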

Additional observations from a re-analysis of the deposited data

Results flagged for a closer look

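Il34 in microglia replicate 2, at 0.543 CPM (14 counts), lay farther from the other microglia libraries (0.0796 to 0.159 CPM) than Dixon's critical value for 5 samples allows. Over the 14 gene-by-group sets of 5 libraries it was the only library past that value, where chance marks about 1 in 20 sets. The same library held the highest astrocyte, oligodendrocyte and neuron marker sums, though not every marker was highest there. The part of RNA from these cells in the Il34 counts was not tested.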

How the results depend on the processing

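All 142 recomputed differences of the 7 genes, over 20 other settings and the summed paralogs, kept their direction and their side of the threshold. Csf1r ranged from 7.16 to 7.41, Csf1 from 1.15 to 1.44, Il34 from -8.09 to -7.13, Csf2ra from 2.86 to 3.17, Csf2rb from 6.94 to 7.21, Csf2rb2 from 6.62 to 7.02 and Csf3r from 7.45 to 7.76. Pathway genes numbered 30 to 32 higher and 15 to 17 lower, a count chosen after seeing the data. The median of all genes was -0.14, against -0.31 with median-of-ratios size factors, -0.33 with library size alone and -0.07 with upper-quartile scaling. Small differences such as those of Src, Sos1, Mapk3 and Ets2 depend on the scaling or on the libraries used. The percentage of Il34 without microglia replicate 2 was also added after seeing the data. Same-numbered samples did not deviate together (correlations -0.054 to 0.025). Samples of the same animal need not do so, and whether the numbers pair the samples is unknown. With the replicate number as a block, 6858 genes were higher and 8037 lower, against 7048 and 8320 without it, and the log2 difference was 7.35 for Csf1r, 1.35 for Csf1 and -7.45 for Il34. Against bulk brain replicates 1 and 2 alone, the calls of Il3ra (0.43, adjusted p = 0.33) and Kitl (-0.25, adjusted p = 0.12) were lost. Among the pathway genes the block lost the call of Src (adjusted p = 0.063). Depth limits Il34 in microglia, which rests on 26 counts in all, and the beta chain genes in bulk brain, which rest on 183 and 141 counts.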
